A study of Camelina sativa with 41 samples.

Results

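The 200 genes described here had a transcript level that was higher at 8 days post-anthesis (DPA) than at 5 or 11 DPA in seeds of Camelina sativa, a hexaploid oil crop related to mustard. The seeds were wild type, of the cultivar Suneson, with no treatment named in the labels, and were collected at 5, 8 and 11 DPA. Each age had 3 biological replicates, so 9 RNA sequencing libraries were compared. The series also holds binding lists of transcription factors. The bound positions in them carry no link to gene IDs, and the lists were not used here. The labels speak of seed pods in one place and of fresh seed in another, and how far pod wall was removed is not stated.

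The genes were chosen from the 89418 of the count table on the measured values themselves. Counts were scaled to a library total of 1000000 (counts per this total, CPM) and averaged over the replicates of an age. The first step, A, is the log2 ratio of the 8 DPA mean to the 5 DPA mean, and the second step, B, is the log2 ratio of the 11 DPA mean to the 8 DPA mean, each with 0.5 CPM added to both means. A gene had to have A of at least 1 and B of at most -1, and could not be among the 100 genes of highest mean CPM. These conditions left 388 genes, and the 200 with the highest mean at 8 DPA were kept. As all 9 libraries entered the choice, the levels, A and B are a description of how these genes were picked, and no test of either step is offered. The reverse pattern, with A of at most -1 and B of at least 1, was met by 271 genes outside the same 100.

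In seeds of this plant family the endosperm first grows as a syncytium, a single cell with many nuclei, and later divides into cells, while the embryo passes from the globular through the heart to the torpedo form. The seed coat differentiates over the same days, and storage of oil and protein follows. No file gives names for the gene IDs: none (0) of the 200 IDs, and 0 of all 89418, matched an identifier among the 98741 genes of the RefSeq table for this species. Genes are therefore given by ID without a function, and the labelled tissue was not checked against marker genes.

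5 DPA replicate 1 was the shallowest library with a total of 15659011 counts, and the rest held 38268473 to 46863553. For 5 DPA replicate 1 a single sequencing run was used, because its second run was identical to that of replicate 2 for all 89418 genes. A total of 3 counts, taken as the floor, equals 0.192 CPM in that library and 0.0640 to 0.0784 CPM in the others. It is 0.0303, 0.0247 and 0.0224 CPM over the 3 libraries of 5, 8 and 11 DPA. The libraries of an age were not interchangeable for these genes. Among the 11 DPA libraries replicate 1 gave the lowest CPM for 168 of the 200 genes. The calls of 11 versus 5 DPA and the membership are given with and without it. Other values at 11 DPA include it unless stated.

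Together the 200 genes took 0.346%, 0.328% and 0.373% of all counts in the 5 DPA libraries, 1.40%, 1.37% and 1.58% in the 8 DPA libraries, and 0.272%, 0.489% and 0.444% in the 11 DPA libraries (replicates 1, 2 and 3 of each age). The 8 DPA libraries stood well above the rest, and 11 DPA replicate 1 was the lowest of all 9. The means were 0.349% ± 0.0224, 1.45% ± 0.112 and 0.401% ± 0.115 (SD, n = 3 each). As each library holds RNA of many cell types together, fewer cells of a type and less RNA per cell cannot be told apart. The 10 most abundant members held 36.1% of the mean sum at 8 DPA. In the single libraries these 10 held 34.4% to 41.4% of the sum.

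**Figure D1:**
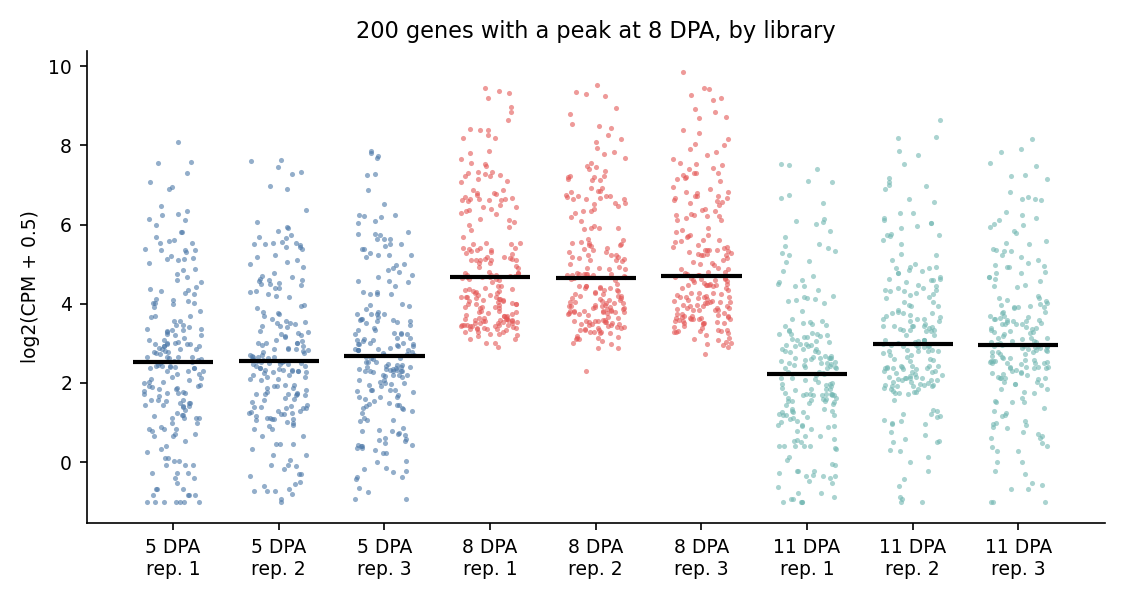
Level of each of the 200 genes in each library, as log2(CPM + 0.5), with 1 point per gene and the median as a black bar. The medians lie between 24.4 and 25.5 CPM in the 8 DPA libraries, between 5.30 and 5.87 CPM in the 5 DPA libraries and between 4.15 and 7.39 CPM in the 11 DPA libraries.

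Levels at 8 DPA spanned nearly 2 orders of magnitude. The highest mean was 757 CPM, the median 25.0 and the lowest 8.38 CPM. Of the 200 genes, 42 had at least 100 CPM, 88 at least 30 CPM and 180 at least 10 CPM. At 8 DPA the most abundant member ranked 39 among all genes, as the 100 most abundant over all libraries were left out. Of those 100, 2 met both conditions on A and B, with means of 5.47, 2275 and 968 CPM for the first and 385, 1066 and 307 CPM for the second at 5, 8 and 11 DPA. CPM do not allow for gene length. Per 1000 bases of the deposited length the members' means at 8 DPA ran from 1.34 to 448 CPM with a median of 15.6 CPM. Over all tested genes the median was 2.33 CPM. As the members were kept for a high 8 DPA mean, this difference is not separate from the choice. The order of the members by CPM and by CPM per 1000 bases was similar (Spearman's rho 0.78 across 200 genes, which are not independent replicates).

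The edges of the choice were soft. The gene ranked 200 by its 8 DPA mean had 8.38 CPM and the next 8.10 CPM. The lowest A inside was 1.00 and the highest outside, among genes that met the other conditions, was 0.99. The highest B inside lay at the limit of -1 to 2 decimals, and the lowest outside was -0.99. A total of 19 members had A under 1.1 and 17 had B above -1.1.

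Both flanks of the peak varied widely. The median member had at 5 DPA 25.2% and at 11 DPA 30.1% of its 8 DPA level. A had a median of 1.92 and quartiles of 1.35 and 2.95, and B had a median of -1.67 and quartiles of -2.64 and -1.29. The first step was under 4-fold (A under 2) for 110 genes, between 4-fold and 8-fold for 43 and at least 8-fold for 47. The second step was under 4-fold for 125, between 4-fold and 8-fold for 40 and at least 8-fold for 35.

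A first and a second step of at least 8-fold coincided in 6 genes, against 41 genes with such a first step alone and 29 with such a second step alone. For 72 genes both steps were under 4-fold. Across the 200 genes A and B had Pearson's r of -0.02 and Spearman's rho of -0.05, although both contain the 8 DPA mean with opposite signs. A had a median of 1.98 in the 100 genes of higher 8 DPA level and 1.85 in the other 100, and B had medians of -1.67 and -1.65. As A, B and the 8 DPA level chose the genes, these values only describe the choice.

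**Figure D2:**
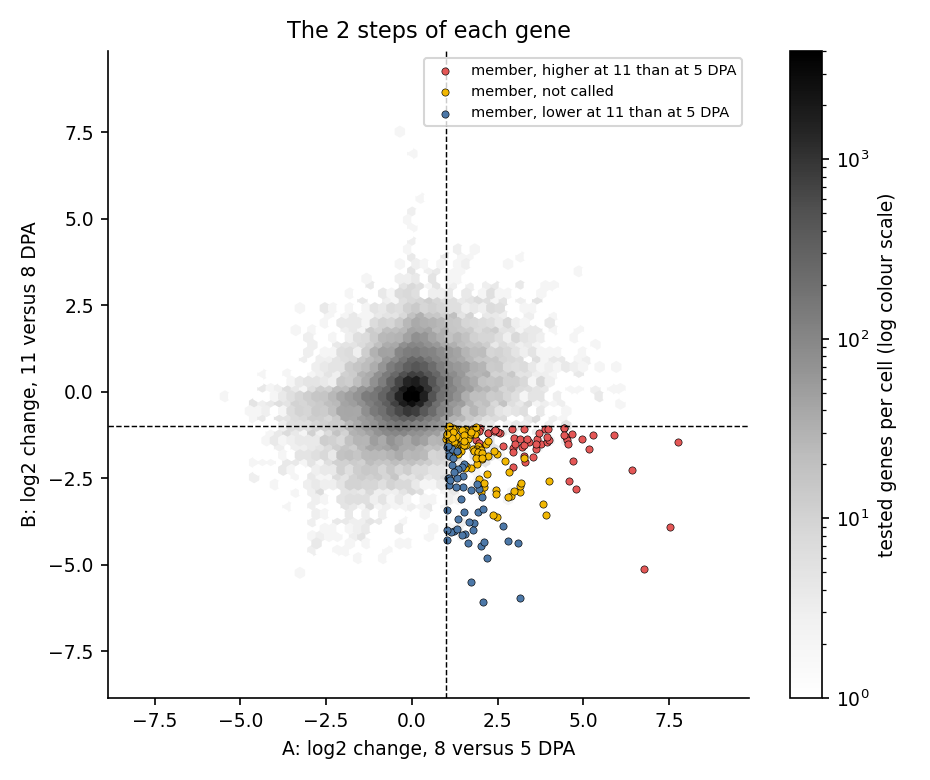
The first step A (8 versus 5 DPA) against the second step B (11 versus 8 DPA) of each gene, as log2 ratios, with all 63017 tested genes as grey cells and the 200 members as points coloured by the test of 11 against 5 DPA. The members fill the corner right of A = 1 and below B = -1 (dashed lines), where few lie far out on both axes.

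Very low levels outside the peak were the exception. A total of 23 members were under 1 CPM at 5 DPA, 21 were under 1 CPM at 11 DPA, and 2 were under 1 CPM at both ages. One gene, Csa06g025120, had 1 count over the libraries of 5 DPA. At 11 DPA 1 gene, Csa17g090160, had no count, and 1 gene, Csa03g030190, had 1 count. The other members had more than 3 counts at every age. All 200 passed the filter on low counts.

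The most abundant members differed in how they left the peak. Csa10g019010, on chromosome 10 by its ID, had 70.5, 45.6 and 48.8 CPM in the 5 DPA libraries, 702, 647 and 921 CPM in those of 8 DPA and 107, 398 and 284 CPM in those of 11 DPA in replicates 1, 2 and 3. Every 11 DPA library stood above every 5 DPA library. Csa06g001440 on chromosome 6 had 189, 174 and 232 CPM in the 5 DPA libraries, 658, 735 and 588 CPM in those of 8 DPA and 5.19, 21.2 and 15.8 CPM in those of 11 DPA. Here the 11 DPA libraries all lay below the 5 DPA libraries. Csa10g019010 thus had A of 3.77 and B of -1.52, and Csa06g001440 had A of 1.73 and B of -5.50.

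The members of largest A were nearly absent at 5 DPA. Csa06g025120, also on chromosome 6, had no count in 5 DPA replicates 1 and 2 and 0.0227 CPM in replicate 3, with 97.6, 92.2 and 143 CPM at 8 DPA. At 11 DPA it had 5.89, 53.0 and 60.9 CPM, so that replicate 1 was far below the other 2. Csa09g057960 on chromosome 9 had 0.0639, 0.102 and 0.499 CPM in the 5 DPA libraries, 117, 114 and 171 CPM in those of 8 DPA and 0.747, 14.7 and 9.92 CPM in those of 11 DPA. Replicate 1 was again the lowest at 11 DPA, and replicate 3 the highest at 5 and at 8 DPA. A was 7.78 for Csa06g025120 and 7.55 for Csa09g057960, and the 0.5 CPM added to the means understates the difference at levels this low.

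The members of most negative B had been present at 5 DPA and were almost lost by 11 DPA. Csa17g035600 on chromosome 17 had 19.7, 17.7 and 22.8 CPM in the 5 DPA libraries, 89.8, 91.4 and 75.7 CPM in those of 8 DPA and 0.363, 0.915 and 1.01 CPM in those of 11 DPA. Csa11g103140 on chromosome 11 had 5.81, 5.78 and 8.05 CPM in the 5 DPA libraries, 57.7, 59.3 and 69.4 CPM in those of 8 DPA and 0.277, 0.719 and 0.507 CPM in those of 11 DPA. For both genes the 3 ages did not overlap. B was -6.09 for Csa17g035600 and -5.97 for Csa11g103140.

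**Figure D3:**
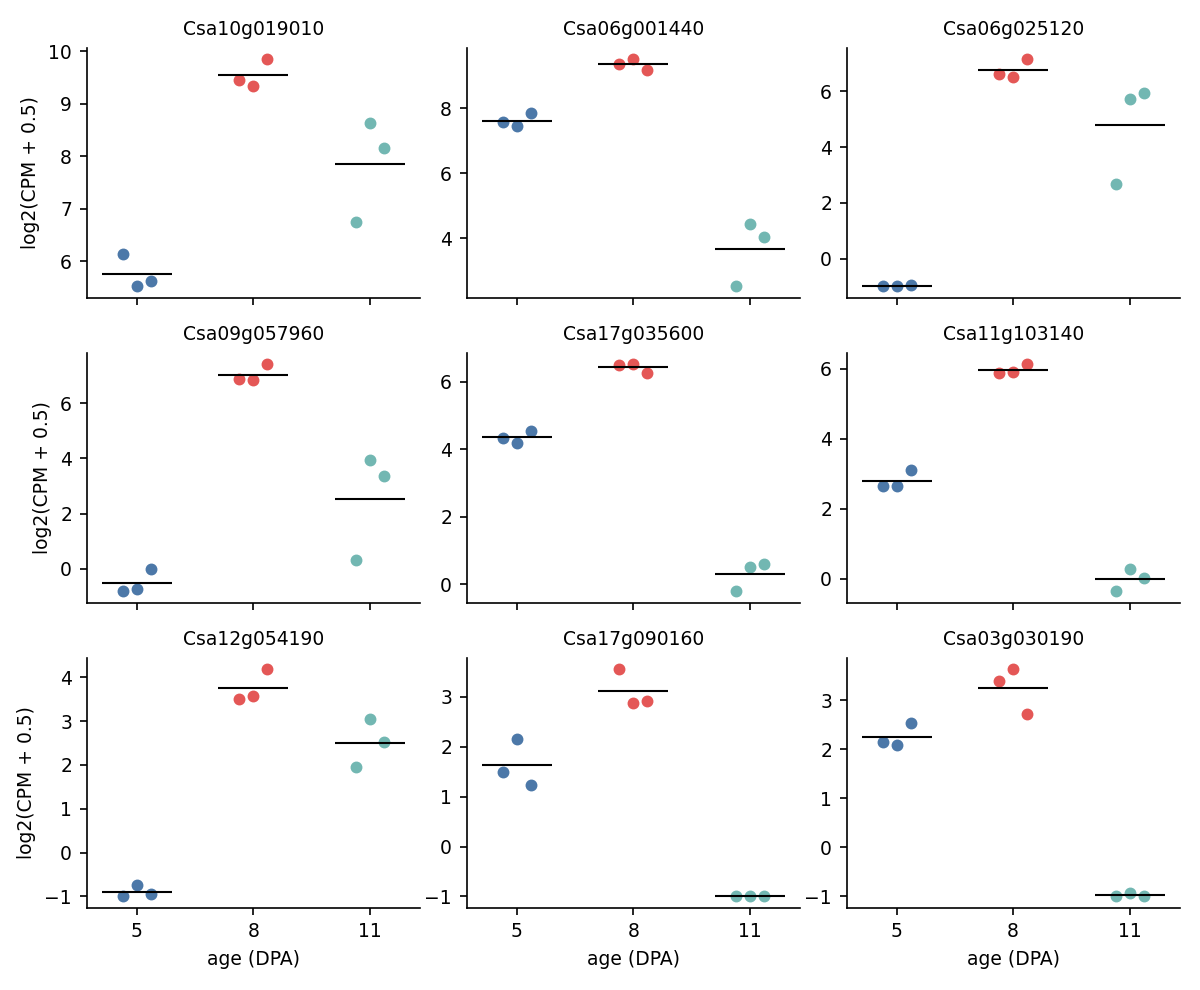
The 9 members named by rule, with 1 point per library, the mean of the log2 values as a bar, age in DPA on the horizontal axis and log2(CPM + 0.5) on the vertical axes, which differ between panels. The 8 DPA points lie above all others in each panel, while the order of 5 and 11 DPA differs between genes.

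Replicates kept 8 DPA apart from 5 and from 11 DPA in nearly every member. All 8 DPA libraries lay above all 5 DPA libraries for 200 members (29.5% of all tested genes), and all 11 DPA libraries lay below all 8 DPA libraries for 199 (32.4% of all tested genes). Both held for 199 members and for 7.96% of all tested genes. By edgeR's quasi-likelihood test (Benjamini-Hochberg adjusted p under 0.05 over all tested genes) 197 members were higher at 8 than at 5 DPA and 189 were lower at 11 than at 8 DPA. Of all 63017 tested genes, 18.1% were called higher in the first step and 19.7% lower in the second. Both calls were made for 187 members and for 2.53% of all tested genes. As the members were picked on these steps, the counts describe how many of them the spread between replicates left uncalled (13 in at least 1 step) and show nothing further.

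Where the genes stood after the peak relative to before it is the comparison that the choice did not fix, since a sum of A and B may have either sign. At 11 DPA 61 members were higher than at 5 DPA and 50 were lower by the same edgeR test and threshold, and 89 were not called. The shares of 30.5% higher and 25.0% lower in the members were near those in all tested genes, of which 29.8% were called higher and 29.1% lower. For the genes called higher this rested on 11 DPA replicate 1: without it 85 members (42.5%) were higher, against 28.2% of all tested genes, and 51 (25.5%) were lower, against 27.7%. By DESeq2 65 were higher and 52 lower of 197 members with an adjusted p (33.0% and 26.4%), against 26.7% and 27% of all genes with one. The libraries of the 2 ages did not overlap for 50 genes with 11 DPA above (30.2% of all tested genes) and for 53 with 11 DPA below (33.1% of all tested genes), and overlapped for 97. This comparison uses the same 5 and 11 DPA libraries as the choice of members.

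The log2 changes of 11 versus 5 DPA spread more widely in the members than in the table. This change is close to the sum of A and B, on which the members were chosen. The wider spread is therefore not separate from that choice. The log2 change had a median of 0.14 and quartiles of -0.73 and 1.14 in the members, against a median of 0.00 and quartiles of -0.53 and 0.55 in all tested genes. It stayed under 2-fold for 107 members (53.5%), against 67.8% of all tested genes. It was at least 2-fold upward for 55 and downward for 38 members. Without 11 DPA replicate 1 the members' median was 0.28.

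**Figure D4:**
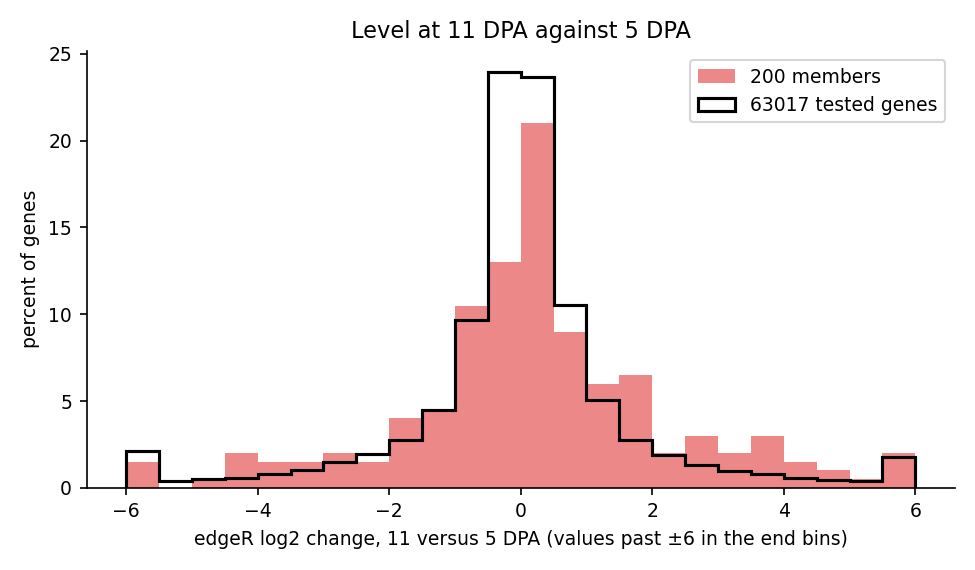
Distribution of edgeR's log2 change of 11 versus 5 DPA in percent of genes per bin of 0.5, for the 200 members (filled) and all 63017 tested genes (outline). Both centre near 0, and a smaller share of the members than of the table lies within 2-fold (53.5% against 67.8%). The members were chosen on A and B, so this difference is not separate from the choice.

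The 61 genes that were higher at 11 than at 5 DPA had low levels at 5 DPA. The medians of their 5, 8 and 11 DPA means were 2.20, 33.1 and 10.7 CPM, and their median A and B were 3.37 and -1.38. The 50 genes that were lower had medians of 10.8, 33.0 and 3.49 CPM at the 3 ages, with a median A of 1.47 and B of -3.24. The 89 genes without a call had medians of 6.58, 19.3 and 6.22 CPM, and their median A and B were 1.71 and -1.64. The medians at 8 DPA of the genes called higher and lower were thus alike, and the groups differ at 5 and 11 DPA, by which the test sorted them.

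For the 2 most abundant members and the 2 of most negative B the change of 11 versus 5 DPA was larger than the spread between replicates. Csa10g019010 was higher at 11 DPA by 2.28 on the log2 scale (SE 0.40, edgeR adjusted p = 0.000857), where the 11 DPA libraries averaged 263 CPM ± 146 and the 5 DPA libraries 54.9 CPM ± 13.6 (SD, n = 3 each). Csa06g001440 was lower, with a log2 change of -3.80 (SE 0.42, edgeR adjusted p = 4.46e-05) and averages of 14.1 CPM ± 8.15 for the 11 DPA libraries and 198 CPM ± 30.0 for the 5 DPA libraries (SD, n = 3 each). Csa17g035600 had a log2 change of -4.70 (SE 0.26, edgeR adjusted p = 7.30e-07), and Csa11g103140 one of -3.69 (SE 0.25, edgeR adjusted p = 2.35e-06). The last 2 genes were named for B, which contains the 11 DPA mean, so their falls follow in part from how they were picked.

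The 2 largest rises at 11 versus 5 DPA rested on few counts at 5 DPA. Csa06g025120 had a ratio of 11 to 5 DPA of 3862 in summed counts, with a 95% counting interval of 693 to 152585 (edgeR adjusted p = 8.83e-05). Leaving out 5 DPA replicate 2 gave a ratio of 2331. Leaving out replicate 3, in which the single count lay, made the gene at least 714-fold higher at 11 than at 5 DPA, with the summed 5 DPA libraries put at the floor of 3 counts. Csa12g054190 on chromosome 12 had 0, 0.102 and 0.0227 CPM at 5 DPA (5 counts in all), 10.9, 11.4 and 17.7 CPM at 8 DPA and 3.39, 7.78 and 5.24 CPM at 11 DPA. The level at 11 DPA was 108 times that at 5 DPA, with a counting interval of 46.2 to 334 (edgeR adjusted p = 9.33e-06), and 327 times if 5 DPA replicate 2 was left out. For Csa09g057960 the ratio was 30.7 with a counting interval of 21.0 to 46.8 (edgeR adjusted p = 0.00302). It became 91.9 when 5 DPA replicate 3 was left out and 18.5 when 11 DPA replicate 2 was.

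The largest falls were those of the 2 members that were all but undetected at 11 DPA. Csa17g090160 on chromosome 17 had 2.30, 3.97 and 1.86 CPM in the 5 DPA libraries, 11.2, 6.84 and 7.06 CPM in those of 8 DPA and no count in those of 11 DPA. Against a floor of 3 counts for the summed 11 DPA libraries it was at least 124-fold lower at 11 than at 5 DPA (edgeR adjusted p = 4.21e-05). Dropping 11 DPA replicate 1 lowered this bound to 80.5 and dropping replicate 2 lowered it to 81.4. Csa03g030190 on chromosome 3 had 3.90, 3.74 and 5.26 CPM in the 5 DPA libraries, 9.98, 11.9 and 6.11 CPM in those of 8 DPA and a single count at 11 DPA, in replicate 2. It was 596-fold lower at 11 than at 5 DPA, with a counting interval of 106 to 23599 (edgeR adjusted p = 1.95e-06). Dropping 11 DPA replicate 1 made this 388-fold, and dropping replicate 2 at least 131-fold.

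Replicates of the outer ages varied more in these genes than in the table. Among genes with at least 30 counts at an age, the median coefficient of variation of CPM was 21.9% at 5 DPA (192 members), 10.6% at 8 DPA (200 members) and 36.6% at 11 DPA (194 members). Over all tested genes with as many counts it was 11.8%, 8.68% and 12.1%. At 11 DPA 1 library stood lower than the others. Replicate 1 was the lowest of its age for 168 members (84.0%), against 48.9% of all tested genes. Its CPM was a median of 0.579 times the mean of the other 2 replicates in the members and 0.952 times in all tested genes. After scaling by TMM, which allows for differences in composition, it was the lowest for 165 members (82.5%) against 37.8% of tested genes. Among 3445 tested genes that met the condition on B but had A under 1, this library was the lowest for 73.5%, with a median ratio of 0.777.

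At 8 DPA replicate 3 was the highest for 121 members (60.5%), against 39.5% of all tested genes, and at 5 DPA the library numbered 3 was the highest for 106 (53.0%), against 32.0%. The median ratio to the other 2 replicates was 1.09 at 8 DPA and 1.12 at 5 DPA. Across the 200 members the log2 ratios at the 2 ages had Pearson's r of -0.19 and Spearman's rho of -0.38, so these libraries did not tend to be high in the same members. Replicate 3 of 8 DPA was the highest for 79.2% of the 3624 tested genes that met the condition on A alone, and the lowest for 76.9% of the 3445 that met the condition on B alone. These genes were sorted with the same libraries. The part of such differences between replicates in the peak of the members was not tested.

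The 8 DPA libraries did not rank alike in all members. In the 47 genes with A of at least 3 replicate 3 stood a median of 1.32 times above the other 2, and in the 110 with A under 2 it stood at 1.05 times. Across the 200 genes this ratio and A had Pearson's r of 0.43 and Spearman's rho of 0.42; both contain 8 DPA replicate 3. In 11 DPA replicate 1 the same 47 genes stood at a median of 0.469 times the other 2 replicates, and the 110 genes at 0.646 times.

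**Figure D5:**
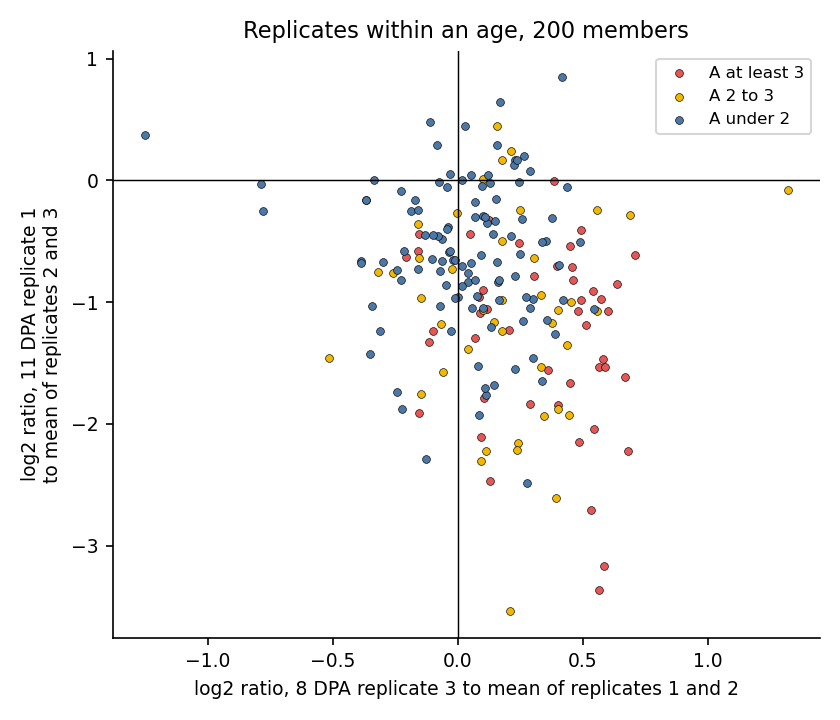
Each of the 200 members by the log2 ratio of 8 DPA replicate 3 to the mean of the other 2 replicates (horizontal) and of 11 DPA replicate 1 to the mean of its other 2 (vertical), coloured by A. Most points lie below the horizontal line, and genes with A of at least 3 lie mainly to the right, with a median of 1.32 times.

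The peak could be looked up in libraries that had no part in a choice. The same conditions were applied to 2 replicates of each age, and the 200 genes so found were read in the replicate left out, where 8 DPA was set against 5 and 11 DPA of the same number. With replicate 1 left out, all 200 genes were highest at 8 DPA in it and 171 met both conditions on A and B. With replicate 3 left out these numbers were 198 and 124, and with replicate 2 left out they were 177 and 105. Of all tested genes 26.2% to 29.4% were highest at 8 DPA in a single replicate number, and 0.616% to 1.31% met both conditions. With replicate 2 left out, 19 of the genes were higher at 11 than at 8 DPA in it and 6 were lower at 8 than at 5 DPA. The lists shared 163, 154 and 159 genes with the 200 when replicate 1, 2 or 3 was left out. With replicate 2 or 3 left out, 11 DPA replicate 1, in which most members were lowest, was among the libraries that chose the genes. With replicate 1 left out, the genes were read in that low library itself. Their median B there was -2.52, against -1.65 in the libraries used for the choice, so the 200 and 171 genes rest in part on it.

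Membership depended most on 11 DPA replicate 1. With this library left out, 163 of the 200 genes still met the conditions on A and B. Without 11 DPA replicate 2 or 3, 196 and 199 still met them. As more genes then met the conditions (454 and 452), 177 and 172 of the 200 stayed among the 200 of highest 8 DPA mean. Leaving out any library of 5 or 8 DPA left 185 to 196 that met the conditions, and gave back 184 to 191. Without 11 DPA replicate 1 the genes that met the conditions numbered 319 in place of 388.

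The genes were spread over all chromosomes. The chromosome is taken from the gene ID, in which 198 members carried a number, and 2 were unplaced. Chromosome 11 held 19, the highest number, and chromosome 13 held 3, the lowest. Per 1000 tested genes of a chromosome the numbers ran from 1.08 on chromosome 13 to 4.85 on chromosome 12, with 3.17 for all tested genes. The members were split evenly by strand, with 100 on each. Their deposited gene length had a median of 1852.5 bases and quartiles of 1215 and 2941 bases, against a median of 2267 bases for all tested genes. It was 2706 bases for the 24935 other tested genes with at least the lowest member's 8 DPA mean. Whether the length includes introns is not stated.

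Some members lay side by side, and whether these were more or fewer than for genes placed at random was not tested. In the order of IDs 10 members formed 5 pairs of direct neighbours, and in 4 of these pairs the genes lay on opposite strands. Csa16g004000, with 149 CPM at 8 DPA, and Csa16g003990, with 11.1 CPM, were such a pair. The pair on the same strand was Csa10g026990 and Csa10g027000, with 96.0 and 50.4 CPM at 8 DPA, A of 4.52 and 2.45 and B of -1.39 and -2.86. These 4 genes were chosen after their values were seen. The use of strand in counting is not stated, so reads of neighbours on opposite strands that overlap cannot be told apart. How reads that match several near-identical copies were counted is not stated either, so values of such copies are uncertain in this hexaploid.

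Genes beside members were also read. Of 383 neighbours that were not members, 312 were tested and 12 met both conditions on A and B. A total of 108 of the 312 (34.6%) had their highest mean at 8 DPA, against 26.0% of all tested genes. The genes that met both conditions made up 0.616% of all tested genes, a share that counts the members, which these neighbours leave out. The difference has no test here, and the part of reads shared between neighbours in it was not tested.

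None (0) of the 22 transcription factors assayed for binding in this series was a member, and 2 of them had no count in any library. Of all 89418 genes 0.434% met both conditions, so 0 of 22 says nothing particular about these factors. Their A was at least 1 for 7, but B was at most -1 for 0, and the lowest B among the 7 was -0.18. The mean was highest at 8 DPA for 3 factors, and these stayed close to that level: Csa02g060070 had 0.994, 10.1 and 9.41 CPM, Csa18g003140 had 2.98, 26.3 and 23.1 CPM and Csa11g037200 had 60.1, 71.5 and 71.2 CPM at 5, 8 and 11 DPA. By edgeR the log2 changes of these 3 from 8 to 11 DPA were -0.03, -0.11 and 0.06 in that order (edgeR adjusted p = 0.891, 0.762 and 0.588). Which of these ages was higher is therefore not settled for them. None of the 22 met the conditions that chose the 200 genes.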

How the data were processed

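The authors deposited raw counts of reads per gene as whole numbers, 1 column for each sequencing run, beside a gene length in bases. Of tools, the submitters' processing notes list HISAT2 2.0.4, Bowtie2 2.3.4.1, Trimmomatic, FastQC and bcl2fastq 2.20.0, with no role for each. How reads were counted, whether by strand, and on which annotation and build, is not given in the sources. The 2 runs of a replicate were summed, except that the second run of 5 DPA replicate 1, identical to that of replicate 2, was left out. P-values set the change between ages against the spread between biological replicates, 3 per age. In the main fit the 3 ages shared 1 estimate of that spread.

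The members and lists were chosen with earlier results of these data known. All 9 libraries entered 1 edgeR 4.0.16 fit in R 4.3.3 (TMM, filterByExpr, glmQLFit, glmQLFTest, age as the only term), with Benjamini-Hochberg adjusted p under 0.05 over 63017 genes. 7998 genes had no count. A standard error is the absolute log2 change over the square root of F. The floor is 3 counts, and counting intervals are exact at 95%; both cover counting error only. The choice of genes and the edgeR fit were tried on simulated counts, with changes planted only in genes well above the floor. Members with few counts at an age were not covered by this. Named genes were, among the 200, the 2 of highest 8 DPA mean, of largest A, of most negative B, and of largest and most negative called log2 change of 11 versus 5 DPA, and any assayed factor. Alternatives were DESeq2 1.42.0 (its test, or its size factors within edgeR), a replicate block, leaving out each library, fitting 2 ages at a time, keeping genes of low count, the first run alone, runs summed as deposited, and, for the choice of genes, TMM-scaled sizes and 0.1 or 2 CPM added. Binding lists were not used. Python 3.11.15, NumPy, SciPy, pandas and Matplotlib were used.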

Additional observations from a re-analysis of the deposited data

How the results depend on the processing

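The number of genes that met the conditions on A and B depended on the value added to the means: it was 750 with 0.1 CPM and 194 with 2 CPM in place of 388, and 189 and 164 of the 200 genes were found again. It stayed within 1.5 times of 388 with TMM-scaled library sizes (359), the first run alone (395), runs summed as deposited (369), single libraries left out (319 to 454) and a replicate number left out at all ages (306 to 562). Of the 200 genes, 185, 191 and 192 were found again under the first 3 of these.

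The numbers of members called higher and lower at 11 than at 5 DPA ran from 54 to 85 and from 46 to 58 over the 16 alternatives of the test, and 95 of the 111 called members were called the same way in all 16. In none (0) was a called member called in the other direction. The counts over all genes stayed within 1.5 times in each alternative. For the 9 named genes, 429 of 432 alternative values kept their side of the threshold and 0 changed sign. Csa06g025120, not called from 8 to 11 DPA (edgeR adjusted p = 0.0912), was called without 11 DPA replicate 1 and with the replicate block (adjusted p = 0.00582 and 0.0340), and the call of Csa03g030190 from 5 to 8 DPA was lost without 8 DPA replicate 2 (adjusted p = 0.0521). The cause was not tested.

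The labels number the replicates of each age 1 to 3 without saying that a number marks a shared plant or day. Deviations of same-numbered libraries from their age means had correlations of -0.0897 to 0.179 (9 pairs, 1 over 0.1), and in 2 of the 9 pairs, both with 5 DPA replicate 3, the library correlated best with its own number, so the numbers were not taken as pairs. With the number as a replicate block 62 members were called higher and 53 lower at 11 than at 5 DPA, and the counts over all genes were 20861, 23941 and 35856 for 8 versus 5, 11 versus 8 and 11 versus 5 DPA, against 22436, 25525 and 37159. Depth limits what can be said of levels near the floor, chiefly in 5 DPA replicate 1.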
